A study of Mus musculus with 6 samples.

Results

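The genes described are those of the cytosolic ribosomal proteins, the protein parts of the ribosomes that translate messenger RNA in the cytoplasm. They were chosen by symbol (Rpl or Rps followed by digits and letters, with Rplp0, Rplp1, Rplp2 and Rpsa) and by a count of at least 10 in 3 or more libraries. Of 55334 genes in the deposited table, 86 symbols matched. Among these, 4 are annotated as pseudogenes (Rpl6l, Rpl32l, Rpl37rt and Rps4l) and were left out, and 2 had too few counts (Rpl3l and Rpl10l). The remaining 80 genes, 48 of the large and 32 of the small subunit, were all tested.

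Messenger RNA was sequenced from Lewis lung carcinoma, a mouse lung cancer line that carried green fluorescent protein (GFP) and was grown as tumours in the flanks of mice. The Scramble group carried a scrambled guide RNA and the JAG2KO group a guide RNA against Jag2, a gene for a Notch ligand, and both were otherwise the same GFP line. Tumour cells were sorted as GFP-positive and negative for CD45, a leukocyte protein, and for the dead-cell stain DAPI, with 3 libraries in each group. The labels give no age, strain or treatment of the mice, and do not say whether the edited cells were 1 clone or a pool, or whether each library came from its own mouse. The p-values therefore reflect nothing beyond how far these libraries spread, which may be technical.

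A ribosome holds 1 copy of nearly every ribosomal protein, so cells make these proteins in near equal numbers. Their messenger RNAs begin with a run of pyrimidines, the 5′ terminal oligopyrimidine (TOP) tract, through which mTOR signalling controls their translation as a group. Growing tumour cells express these genes at very high levels, with Myc and RNA polymerase I driving ribosome production in parallel.

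The sequences at the start sites are shown for called members, because a pyrimidine run at the start is the known hallmark of these genes. They are the called members with the smallest p in each direction (3 higher, then 3 lower) among those in the table of RefSeq promoters (GRCm38.p6), which matched 60 of the 80 members by symbol. Each runs 5′ to 3′ from 40 bases before an annotated start to 20 bases from it on, and capitals mark the longest unbroken run of C or T within 20 bases of that start. Where several starts are listed, the one with the longest run is shown. A marked run need not begin at the start. Those of Rps27l and Rpl39 lie wholly before it and those of Rps19 and Rpl36a wholly after it. Only those of Rpl34 and Rpl35a span it. The windows are chr9:66946046-66946105 on the plus strand for Rps27l, chr3:130730318-130730377 on the minus strand for Rpl34, chr7:24884873-24884932 on the plus strand for Rps19, chr16:33056442-33056501 on the plus strand for Rpl35a, chrX:134585614-134585673 on the plus strand for Rpl36a and chrX:37085203-37085262 on the minus strand for Rpl39.
Rps27l: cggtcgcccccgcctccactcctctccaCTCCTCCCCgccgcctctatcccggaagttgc
Rpl34: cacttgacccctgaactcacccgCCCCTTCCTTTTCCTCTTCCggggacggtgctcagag
Rps19: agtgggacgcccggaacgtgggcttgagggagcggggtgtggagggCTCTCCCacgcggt
Rpl35a: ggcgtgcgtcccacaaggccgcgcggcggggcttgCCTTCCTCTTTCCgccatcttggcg
Rpl36a: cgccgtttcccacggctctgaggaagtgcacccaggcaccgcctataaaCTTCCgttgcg
Rpl39: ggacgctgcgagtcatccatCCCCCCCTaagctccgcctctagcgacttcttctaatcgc

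A run of at least 8 pyrimidines lay within 20 bases of a listed start in 29 of 60 members (48.3%), against 18.4% of all 27025 genes in that table. Runs wholly before or after the start were included, so this is no count of TOP tracts. The run of Rpl34 was 20 bases long and that of Rpl35a 13, while Rpl36a had a run of 5. Over the 300 bases from 250 before each start to 50 after it, the ETS core CCGGAAG was present on either strand in 25 of 60 members (41.7%) and in 9.93% of all genes. AAGATGGC, the core of a YY1 site, was found in 5 members (8.33%) and in 3.19% of all genes. A TATA box, TATAAA, was present in 6 members (10%) and in 15.7% of all genes. Members with the long run had a median log2 ratio of 0.01 between the groups (2 called higher, 3 lower, of 29). Those without it had a median of -0.0020 (1 higher, 2 lower, of 31). Of all 80 members 12.5% were called, and of all genes tested 24.3%.

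Libraries held from 37036772 (JagKO2) to 43923565 (Scramble2) counts, and 3 counts were worth 0.068 to 0.0811 counts per 1000000 scaled library counts (CPM). The JAG2KO libraries are called by their column names, JagKO2 to JagKO4, and values of single libraries are given in the order of these numbers. Jag2 itself measured 1.52, 1.1 and 1.02 CPM in Scramble libraries 1, 2 and 3, and 0.513, 0.798 and 1.11 CPM in JagKO2, JagKO3 and JagKO4. The groups overlapped (log2 ratio -0.58, edgeR adjusted p = 0.318), and an edited gene can still be transcribed, so this level does not check the labels. Of the lung epithelial markers, Nkx2-1, Sftpa1 and Sftpb had 0 counts and Sftpc and Scgb1a1 lay under 0.5 CPM. Krt18 stood at means of 267 and 307 CPM in the Scramble and JAG2KO groups and was not called. Krt8 fell from a mean of 124 CPM in Scramble to 4.13 CPM in JAG2KO (log2 ratio -4.90, edgeR adjusted p = 1.72e-10). Krt19 fell from 1.38 to 0.47 CPM (edgeR adjusted p = 0.0117). The list of 10 epithelial genes, with Krt8 and Krt19 called lower among 5 tested, summed to 390.2 to 399 CPM over the Scramble libraries and 283 to 339 CPM over the JAG2KO libraries. The macrophage list, with 4 of 10 genes called higher and 1 lower, summed to 60.5 to 69.7 CPM over the Scramble libraries and 92.6 to 111.1 CPM over the JAG2KO libraries. Endothelial markers (4 of 8 higher, 1 lower) summed to 119.9 to 123 CPM and 104.4 to 127 CPM. Eng, the gene called lower, made up most of these sums, at means of 101 CPM in Scramble and 73.4 CPM in JAG2KO. Those called higher were Pecam1 (6.37 and 14.3 CPM), Cdh5 (7.58 and 13.4), Kdr (1.76 and 4.12) and Vwf (1.35 and 4.66). Fibroblast and pericyte genes (4 of 8 higher, 1 lower) summed to 1051 to 1162 CPM and 1283 to 2077 CPM. Haemoglobin genes and Alas2 (4 of 5 lower) summed to 50.4 to 60.05 CPM and 12.2 to 31.3 CPM. The 8 leukocyte genes, of which 0 of 3 tested were called by edgeR, summed to 3.74 to 5.03 CPM and 3.27 to 6.33 CPM. The part of these other cells in the values below was not tested, and in bulk samples fewer cells of a type and less RNA per cell cannot be told apart.

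Ribosomal protein genes took the same share of each library within the spread between libraries. They received 6.87%, 6.99% and 7.04% of all counts in Scramble replicates 1, 2 and 3, and 7.11%, 6.66% and 6.99% in JagKO2, JagKO3 and JagKO4. The means were 6.97% ± 0.0883 (SD, n = 3) in Scramble and 6.92% ± 0.234 (SD, n = 3) in JAG2KO, and both the highest and the lowest share belonged to JAG2KO libraries. Counts of the large subunit genes were 1.48, 1.47 and 1.45 times those of the small subunit in Scramble replicates 1 to 3, and 1.43, 1.44 and 1.44 times in JagKO2 to JagKO4. This ratio was lower in every JAG2KO library than in any Scramble library, by a mean of 1.44 ± 0.00718 against 1.47 ± 0.0179 (SD, n = 3 each), and was not tested.

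Few of the 80 genes differed between the groups, and those that did differed by less than 1.25-fold. By edgeR's quasi-likelihood test, with p adjusted over all 16049 genes tested, 4 members were higher in JAG2KO, 6 were lower and 70 were not called. The called members were 12.5% of the list, where 24.3% of all genes tested were called (11.8% higher and 12.5% lower). Among genes at 100 CPM or more, which are measured with like precision, 31.5% were called, against 13.5% of the 74 members at that level. The median log2 ratio (JAG2KO over Scramble) was 0.01 for the members and 0.0018 for all genes tested. Per gene, the members' changes had a median size of 0.07 on the log2 scale, against 0.24 for all genes tested and 0.14 for those at 100 CPM or more. The 6 CPM values fell into 2 groups that did not overlap for 26 members (32.5%), and for 40.3% of all genes tested.

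**Figure D1:**
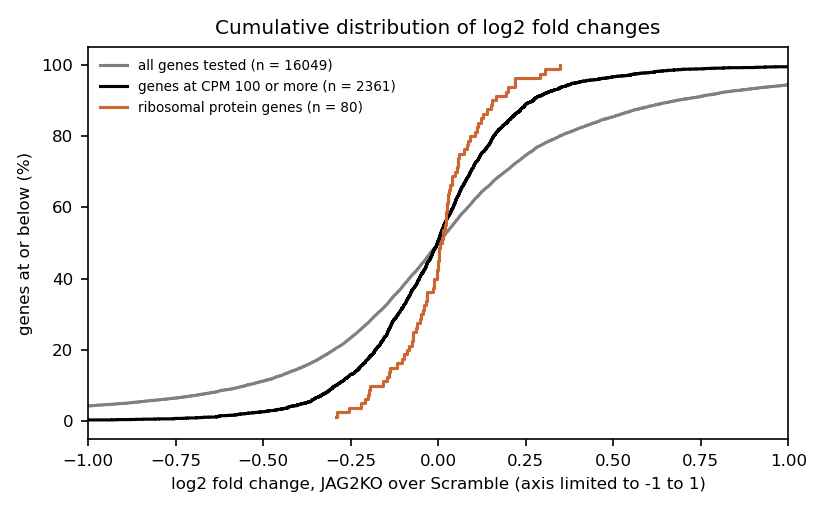
Cumulative share of genes (vertical axis, %) by log2 ratio of JAG2KO over Scramble (horizontal axis, shown from -1 to 1) for all 16049 genes tested, the 2361 genes at 100 CPM or more and the 80 ribosomal protein genes. The curve of the ribosomal protein genes is the steepest of the 3, and crosses its middle near 0 as the others do.

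The width of the intervals shows how fine a difference these libraries could resolve. The 95% interval of the fold change lay wholly within 1.25-fold in either direction for 61 of 80 members and within 1.5-fold for 76. For all genes tested those counts were 3766 and 7909 of 16049. The interval had a median width of 0.27 on the log2 scale for members and 0.56 for all genes. At 100 CPM or more the widths were closer, at 0.26 for 74 members and 0.29 for all 2361 genes. Of those members 60 lay within 1.25-fold and 74 within 1.5-fold, and of those genes 1391 and 2144. The 4 members whose interval passed 1.5-fold were Rps10, Rpl24, Rpl36al and Rpl39l, all among the members with the fewest counts. Between replicates, members varied with a median coefficient of variation of 3.11% in Scramble and 3.85% in JAG2KO, compared with 4.24% and 5.37% for all genes at 100 CPM or more.

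**Figure D2:**
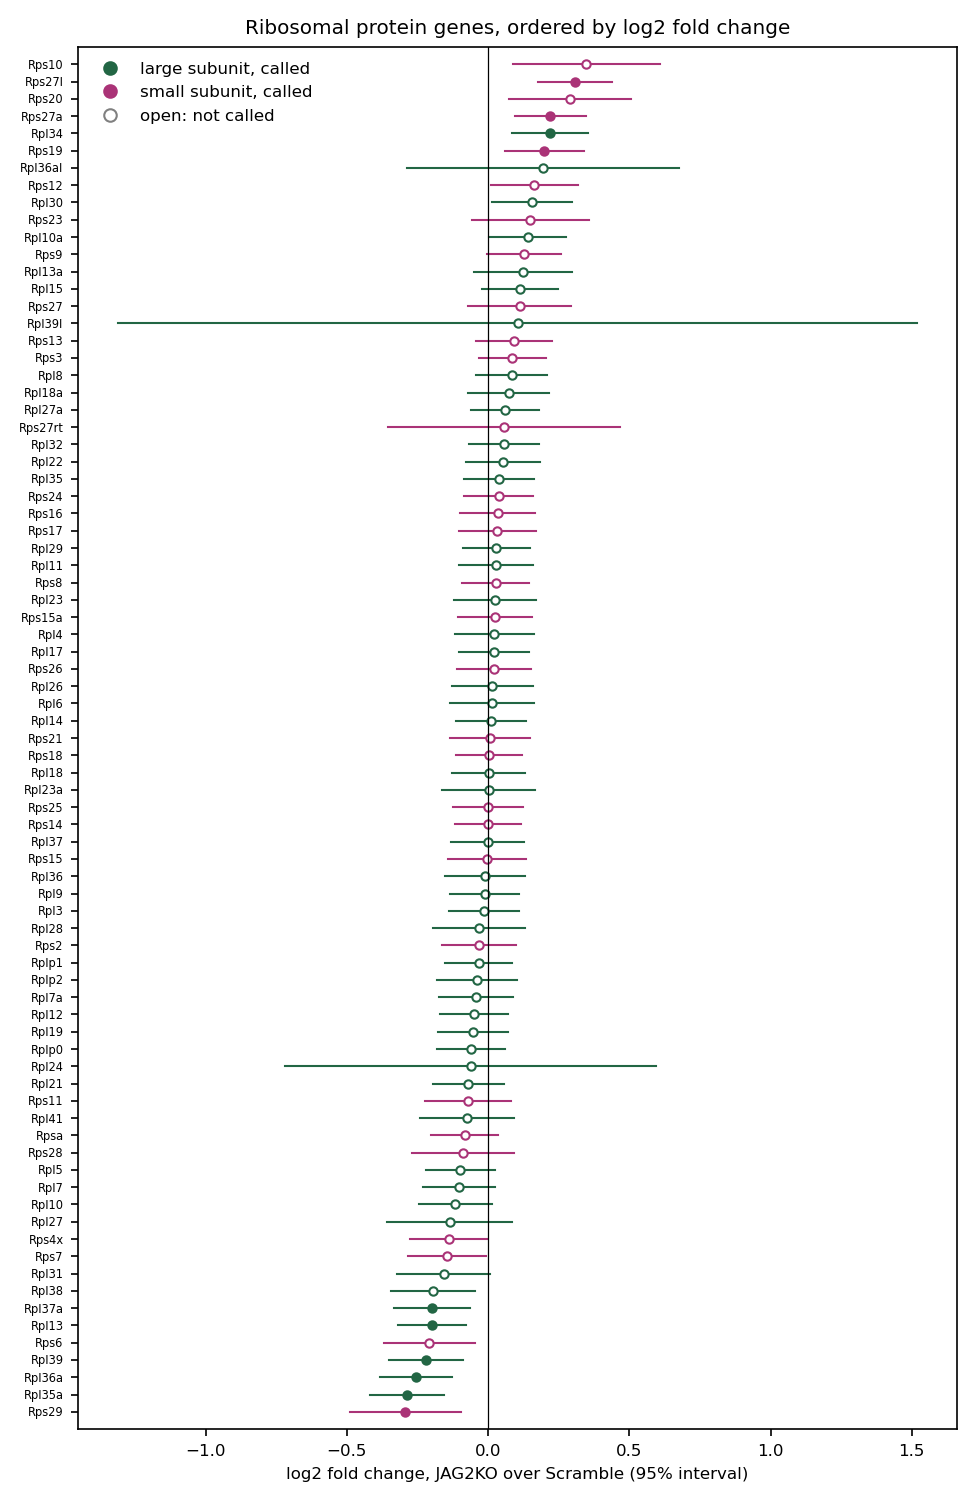
Log2 fold change of JAG2KO over Scramble for 79 of the 80 ribosomal protein genes with its 95% interval, ordered by size, with large and small subunit genes in different colours and filled points for called genes. Most intervals cross 0, and the called genes lie between -0.29 and 0.31.

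Of the genes that were higher, Rps27l was called with the smallest p. It encodes a small subunit protein nearly identical to that of Rps27 and is known as a target gene of p53 (chromosome 9, 66946086 to 66949516, plus strand, GRCm38). It measured 97.1, 97.9 and 100.1 CPM in Scramble libraries 1 to 3, and 120.3, 127 and 118 CPM in JagKO2 to JagKO4. Every JAG2KO library lay above every Scramble library, with a log2 ratio of 0.31 (SE 0.06, edgeR adjusted p = 0.00313).

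Rps27a, whose product is made fused to ubiquitin, stood at 569, 576 and 591 CPM in the Scramble group and 701, 665 and 656 CPM in the JAG2KO group. Its groups did not overlap, and its log2 ratio was 0.22 (SE 0.06, edgeR adjusted p = 0.016). Without Scramble replicate 2 its edgeR adjusted p was 0.0556. Rpl34, a large subunit gene on chromosome 3, stood at 733, 675 and 680 CPM in the Scramble group and 804, 783 and 843 CPM in the JAG2KO group, a log2 ratio of 0.22 (SE 0.06, edgeR adjusted p = 0.0215). This call was lost without Scramble replicate 2, Scramble replicate 3 or JagKO4, with edgeR adjusted p up to 0.0944. Rps19, a small subunit gene whose human counterpart is mutated in Diamond-Blackfan anaemia, stood at 434, 485 and 489 CPM in the Scramble group and 550.1, 529 and 536 CPM in the JAG2KO group. Its log2 ratio was 0.20 (SE 0.06, edgeR adjusted p = 0.0411). Rps19 has 14 pseudogene symbols in the table, and with their counts added to it the call was lost, as it was with any 1 library left out.

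Of the genes that were lower, Rpl35a and Rpl36a had the smallest p. Rpl35a, a large subunit gene also linked to Diamond-Blackfan anaemia, lies on chromosome 16 (33056453 to 33060189, plus strand). It stood at 649, 668 and 648 CPM in the Scramble group and 508, 545 and 556 CPM in the JAG2KO group. All JAG2KO libraries were below all Scramble libraries, with a log2 ratio of -0.29 (SE 0.06, edgeR adjusted p = 0.00428). Rpl36a lies on the X chromosome and stood at 286, 305 and 303 CPM in the Scramble group and 246, 248 and 254 CPM in the JAG2KO group. It fell by 0.26 on the log2 scale (SE 0.06, edgeR adjusted p = 0.0078).

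The other X-linked gene that was called, Rpl39, encodes a very short protein of the tunnel through which the new peptide leaves the ribosome. It stood at 283, 301 and 303 CPM in the Scramble group and 254, 249 and 259.9 CPM in the JAG2KO group (log2 ratio -0.22, edgeR adjusted p = 0.0184). Rpl13, among the most abundant members, stood at 2706, 2811 and 2880 CPM in the Scramble group and 2445, 2333 and 2536 CPM in the JAG2KO group (log2 ratio -0.20, edgeR adjusted p = 0.0224). Neither gene's groups overlapped, but both calls were lost without Scramble replicate 2, Scramble replicate 3 or JagKO3, with edgeR adjusted p up to 0.0881 for Rpl13 and 0.0893 for Rpl39. Rpl37a stood at 461, 501 and 508 CPM in the Scramble group and 440.1, 416 and 425 CPM in the JAG2KO group (log2 ratio -0.20, edgeR adjusted p = 0.0363).

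Rps29, a small zinc-binding protein of the small subunit, had the largest decrease of the called members and a wide spread in Scramble. It measured 195 CPM in Scramble replicate 1 but 253 and 248 CPM in replicates 2 and 3, and 183, 190.1 and 195 CPM in JagKO2 to JagKO4. Replicate 1 thus sat 0.267 CPM above the highest JAG2KO library. The log2 ratio was -0.29 (SE 0.09, edgeR adjusted p = 0.033). Rps29, Rpl37a and Rps19 were the called members that lost their call under most alternatives (5, 6 and 8 of 16), whereas Rps27l and Rpl35a kept theirs under all 16.

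**Figure D3:**
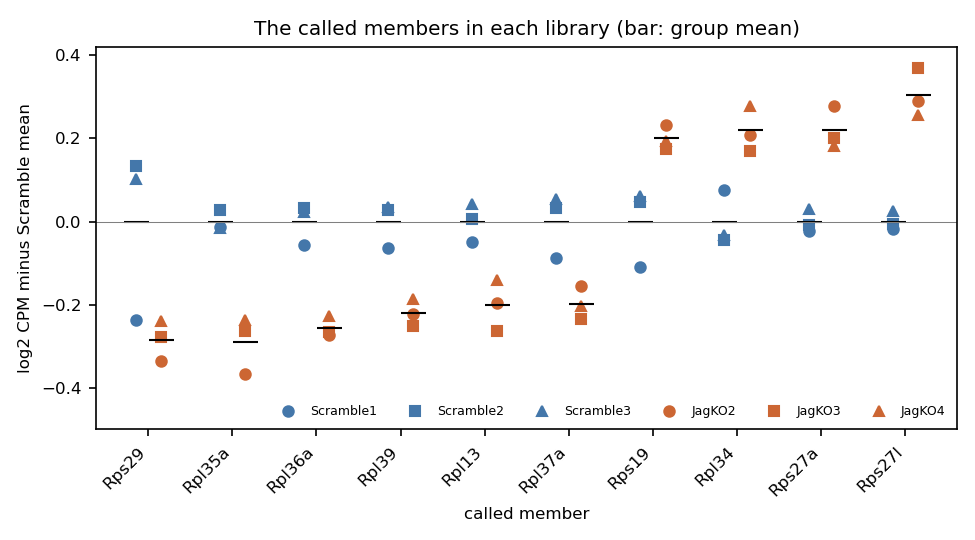
Log2 CPM of the 10 called members in each of the 6 libraries, relative to the gene's Scramble mean, with a bar for each group mean. The JAG2KO libraries lie apart from the Scramble libraries for each gene, and for Rps29 the lowest Scramble library (replicate 1) comes within 0.267 CPM of them.

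Leaving out 1 library changed these counts. Without Scramble replicate 1 there were 3 higher and 7 lower members. Without Scramble replicate 2 there were 1 and 2, and without Scramble replicate 3 there were 2 and 2. Without JagKO2 there were 4 and 9, without JagKO3 4 and 2, and without JagKO4 2 and 4. The share of all genes called fell as well, from 24.3% to 17.1%, 16.3% and 18% without Scramble replicates 1, 2 and 3. It was 24%, 20.6% and 17.4% without JagKO2, JagKO3 and JagKO4. With per-library trends on GC content and transcript length removed, 6 members were higher and 2 lower (24.5% of all genes called). In that fit Rps19, Rpl36a, Rpl39, Rps29 and Rpl37a were not called, with edgeR adjusted p from 0.0582 for Rps19 to 0.202 for Rpl39.

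By role in the ribosome, the members were read in groups of 2 to 9 genes. Of all members 12.5% were called, and of all genes tested 24.3%. Groups this small cannot be told apart from these shares. The stalk proteins, which recruit elongation factors, are encoded by Rplp0, Rplp1 and Rplp2. Rplp0 stood at 3291, 3280 and 3274 CPM in the Scramble group and 3322, 3007 and 3114 CPM in the JAG2KO group, overlapping groups with a log2 ratio of -0.06 (95% interval -0.18 to 0.06). The values were -0.03 (-0.15 to 0.09) for Rplp1 and -0.04 (-0.18 to 0.10) for Rplp2. Rpl5 and Rpl11, which bind the 5S ribosomal RNA and can hold back the p53 regulator Mdm2, had log2 ratios of -0.10 (-0.22 to 0.02) and 0.03 (-0.10 to 0.16).

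Of the proteins next to the site of peptide bond formation, Rpl3, Rpl4, Rpl8 and Rpl10, none was called. Their log2 ratios ran from -0.12 for Rpl10, on the X chromosome, to 0.08 for Rpl8. Among 9 genes for proteins around the exit of the peptide tunnel, Rpl39 was lower and 8 were not called. Rpl38 had a log2 ratio of -0.20 (edgeR adjusted p = 0.057) and Rpl31 one of -0.16, while Rpl17, Rpl19, Rpl22, Rpl23a, Rpl26 and Rpl35 lay between -0.05 and 0.05. The genes Rps2, Rps3, Rps14, Rps23, Rps26, Rps28 and Rpsa lie along the path of the messenger RNA in the small subunit. By edgeR they had 0 calls and 0 members at an unadjusted p under 0.05, against 10 and 19 of all 80 members. Rps23 had the largest difference of them, with 374, 360.2 and 377 CPM in the Scramble group and 485, 358 and 390.2 CPM in the JAG2KO group, where JagKO2 alone stood high. In DESeq2 and limma-voom none of the genes of these 5 role groups (stalk, 5S, peptide bond site, tunnel exit and messenger RNA path) that edgeR left uncalled was called, except Rpl38 in DESeq2.

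Several small subunit genes lay just outside the threshold. Rps20 stood at 513, 548 and 589.9 CPM in the Scramble group and 795, 598 and 624 CPM in the JAG2KO group (log2 ratio 0.29, edgeR adjusted p = 0.0516), and it was called under 9 of 16 alternatives. Rps10 stood at 18.8, 20.8 and 18.5 CPM in the Scramble group and 21, 28.8 and 24.2 CPM in the JAG2KO group. Its log2 ratio was 0.35 (edgeR adjusted p = 0.0529), but its low level is no measure of its RNA, as described below. Rps6, the ribosomal protein that S6 kinases phosphorylate, stood at 410.3, 408 and 413 CPM in the Scramble group and 396, 328 and 343 CPM in the JAG2KO group. Its log2 ratio was -0.21 (edgeR adjusted p = 0.0586), with JagKO2 close to the Scramble libraries.

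Paralog copies, which replace a standard ribosomal protein in some tissues, received few counts apart from Rps27l. Rpl36al, a near copy of Rpl36a on chromosome 12, stood at 3.33 ± 0.44 CPM in the Scramble group and 3.81 ± 0.735 CPM in the JAG2KO group (SD, n = 3 each). Rpl39l, known for its expression in testis, measured 0.306 ± 0.135 CPM and 0.332 ± 0.231 CPM. Rpl3l, the striated muscle copy of Rpl3, had 22 counts over Scramble and 35 over JAG2KO, 27 of them in JagKO4. Rpl10l had 0 counts in every library, where 3 counts would be 0.0811 CPM or less. Reads of such near copies may be counted for either gene.

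Expressed per kilobase of exon, the members' levels formed a smooth series that ended in a few very low genes. Rplp1 stood highest at 3657 CPM per kilobase over the 6 libraries, followed by Rps2 (2169), Rplp0 (1938), Rps15 (1688), Rpl8 (1512) and Rpl4 (1428). The length used joins the exons of all annotated transcripts of a gene, such as 499 bases for Rplp1 and 3020 for Rpl30. The order therefore also depends on the annotation. In mean CPM, Rps2 (3970) and Rplp0 (3215) stood above Rplp1 (1825). The 74 members at 100 CPM or more reached down to 86.6 CPM per kilobase in Rpl30. Below them came Rps27rt (30.1), Rpl13a (20.4), Rps10 (9.53), Rpl36al (2.64), Rpl24 (2.39) and Rpl39l (0.383). Rpl24, Rpl13a and Rps10 encode standard parts of the ribosome that are present in equal numbers with the others. In the annotation used here, exons of other genes on the same strand cover 47% of the exon bases of Rpl24, 35.4% of Rpl13a, 24.5% of Rpl36al and 20.6% of Rps10. The overlapping models Gm28037, Gm45713, Gm49383 and RPS10-NUDT3 each had 0 counts in all 6 libraries. The sources used here do not give how reads over several genes were counted, and the low levels of these 4 genes are therefore no measure of their RNA. Reads of the members may also be shared with their many processed pseudogenes.

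**Figure D4:**
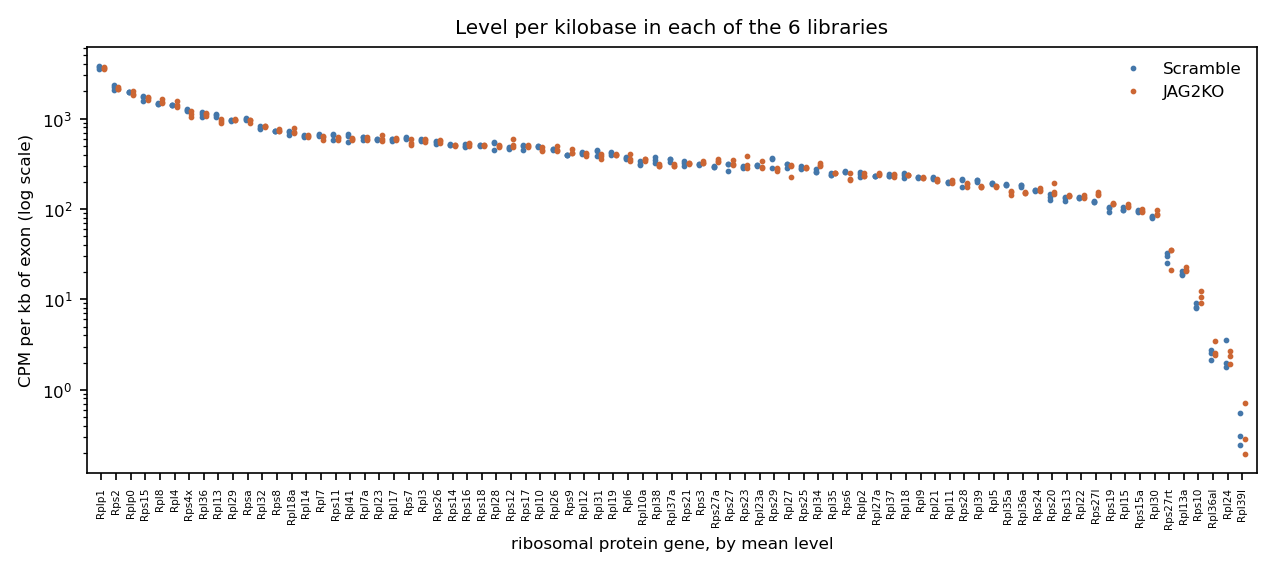
Level of 79 of the 80 ribosomal protein genes in CPM per kilobase of exon (log axis), ordered by the mean over libraries, with a point for each of the 3 Scramble and 3 JAG2KO libraries. The genes down to Rpl30 lie above 80 CPM per kilobase in every library, and 6 genes from Rps27rt to Rpl39l drop away.

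Variation between replicates was shared by groups of members, which were singled out after their values were seen. In Scramble, 6 members at 100 CPM or more had a coefficient of variation over 8% (Rps27, Rps28, Rps29, Rpl28, Rpl31 and Rpl41), and replicate 1 was the lowest library for all 6. Rps28 measured 298 CPM there against 367 and 363 CPM, and Rpl41 642 against 744 and 796 CPM. In JAG2KO, 10 members passed 8%, among them Rpl4, Rpl6, Rpl23, Rpl23a, Rpl27, Rps6, Rps12, Rps20 and Rps23, and for 9 of them JagKO2 was the highest and JagKO3 the lowest library. Rpl27 went the other way, with 346 CPM in JagKO2 and 457 and 469.8 CPM in the others. Over all 80 members, Scramble replicate 1 was the lowest of its group for 47 and JagKO3 for 51.

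Members of a chromosome had median differences close to those of the other genes on it. All 4 X-linked members (Rpl10, Rpl36a, Rpl39 and Rps4x) had negative log2 ratios, with a median of -0.18, and the median of 328 other X-linked genes was -0.18 too. Both members on chromosome 3, Rpl34 and Rps27, had positive values with a median of 0.17, as did the 579 other genes there (0.17). The 3 members on chromosome 12 had a median of -0.15 and the other genes -0.17, and the 3 on chromosome 1 had -0.16 and -0.10. On chromosome 7, which holds 14 members, 11 values were positive with a median of 0.04, against 0.07 for the other genes. The other genes counted here are those with a mean of at least 2 CPM.

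Across the 17 chromosomes with at least 2 members, the members' medians and the other genes' medians correlated at r = 0.944 (Spearman's rho = 0.885). This is a description without a test, since all points come from the same 6 libraries and the same scaling. On log2(CPM + 0.5) the value was 0.926 with all libraries and 0.811 to 0.945 with each library left out in turn, lowest without JagKO4. Gene by gene the relation was looser, at r = 0.50 over the 80 members, and subtracting each chromosome's median took the SD of the log2 ratios of the 74 abundant members from 0.12 to 0.10. Of the 10 called members, 9 had the sign of their chromosome's median, the exception being Rps27l. For other called genes with at least 2 CPM that share was 67.9% of 3414. Over all members, called or not, 50 of 80 (62.5%) had the sign of their chromosome's median, near the 61.4% of 11416 other genes. Why chromosomes differ was not tested.

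**Figure D5:**
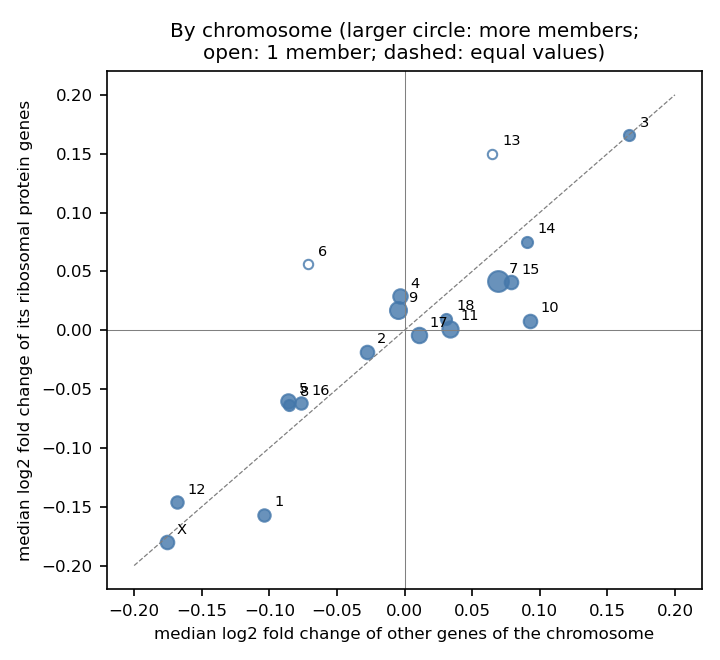
Median log2 ratio of the ribosomal protein genes of each chromosome (vertical axis) against the median of the other genes of that chromosome (horizontal axis), with larger circles for more members and open circles for a single member. The X chromosome and chromosome 12 lie at the lower left, chromosome 3 at the upper right, and most points follow the dashed line of equal values.

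Nearer neighbours gave a similar picture for some called members. Around Rps27l, 9 of the 10 nearest other genes (5 on each side, 2 CPM or more) had positive log2 ratios, with a median of 0.35 and 3 called higher. Around Rpl35a, 9 of 10 had negative values, with a median of -0.25 and 5 called lower. All 10 neighbours of Rpl39 were negative (median -0.26, 3 called lower). Of all 16049 genes tested, 8059 were positive and 7990 negative, 11.8% were called higher and 12.5% lower. The neighbours of Rps27a, Rpl34, Rps29, Rpl37a and Rps19 had smaller medians of 0.11, 0.12, -0.10, -0.07 and 0.08, with their gene's sign. Of these neighbours 1, 1, 1, 2 and 2 of 10 were called in the gene's direction. The neighbours of Rpl36a (5 positive and 5 negative, median -0.0047) and of Rpl13 (median 0.04, none called) did not share their gene's sign as a group. For Rps27l, Rpl35a and Rpl39 a change of the gene itself and a shift of the neighbourhood cannot be told apart.

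Of 6 genes of ribosomal proteins under other symbols, 2 were higher and 1 was lower, by small amounts. This was 50% called, against 24.3% of all genes tested and 12.5% of the members. Rps3a1, which encodes a small subunit protein, stood at 1794, 1745 and 1716 CPM in the Scramble group and 2261, 1958 and 2045 CPM in the JAG2KO group (log2 ratio 0.25, edgeR adjusted p = 0.0123). Rpl22l1, a paralog of Rpl22, rose by 0.32 in log2 units (edgeR adjusted p = 0.00633). Both lie on chromosome 3. Fau, whose product is cleaved to the small subunit protein eS30, lies on chromosome 19, where the median of other genes was -0.15. It stood at 873, 868 and 893 CPM in the Scramble group and 775, 748 and 731 CPM in the JAG2KO group (log2 ratio -0.22, edgeR adjusted p = 0.0124). Rpl7l1 (log2 ratio -0.14) and Rack1 (-0.02) were not called.

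Other genes that carry TOP tracts, mostly translation factors, were called at about the rate of all genes. Of 18 tested, 3 were higher and 1 lower, with a median log2 ratio of 0.08. The initiation factor gene Eif4b stood at 1127, 1148 and 1083 CPM in the Scramble group and 1427, 1267 and 1349.9 CPM in the JAG2KO group (log2 ratio 0.27, edgeR adjusted p = 0.00786). Eif3e, a subunit of initiation factor 3, rose by 0.21 in log2 units (edgeR adjusted p = 0.032) and Eif3m fell by 0.26 in log2 units (edgeR adjusted p = 0.0146). Of the snoRNA host genes, whose spliced RNAs often begin with a TOP tract, 1 of 10 was higher and 3 were lower (40% called, against 24.3% of all genes). Snhg6 and Snhg1 fell by 0.37 and 0.30 on the log2 scale, and Snhg15 rose by 0.39 in log2 units (edgeR adjusted p = 0.00262, 0.0118 and 0.0204).

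Genes that build ribosomes were called at about the rate of all genes. Of 46 assembly factors, 1 was higher, 9 were lower and 36 were not called (21.7% called, where all genes had 24.3% called, 11.8% higher and 12.5% lower), with a median log2 ratio of -0.08. The direction was not tested. Nop10, a core protein of H/ACA snoRNA particles, stood at 62.9 ± 4.25 CPM in the Scramble group and 42.1 ± 7.24 CPM in the JAG2KO group (SD, n = 3 each; edgeR adjusted p = 0.00291). Wdr75 and Nolc1, nucleolar proteins, fell by 0.29 and 0.30 in log2 units (edgeR adjusted p = 0.00499 and 0.00523). Of 14 genes for RNA polymerase I and its factors, which transcribe ribosomal RNA, 1 was higher and 3 lower (28.6% called). The subunit genes Polr1e, Polr1a and Polr1d fell by 0.43, 0.26 and 0.25 in log2 units (edgeR adjusted p = 0.00254, 0.008 and 0.0124).

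Of 26 initiation factor genes, 1 was higher and 5 were lower (23.1% called, near the 24.3% of all genes), with a median log2 ratio of -0.11. Eif2b2, a subunit of the exchange factor of eIF2, went from 69.2 ± 1.97 CPM in the Scramble group to 34.4 ± 1.54 CPM in the JAG2KO group (SD, n = 3 each), a log2 ratio of -1.01. Eif4a2 and Eif2s1 fell by 0.30 and 0.23 in log2 units (edgeR adjusted p = 0.0124 and 0.0199). Eif2b2 and Eif2s1 lie on chromosome 12, where the median of other genes was -0.17.

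Regulators of ribosomal protein synthesis were called in both directions. Among 21 tested genes of mTOR signalling, Myc and the S6 kinases, 5 were higher, 4 lower and 12 not called (42.9% called, against 24.3% of all genes). Eif4ebp2, a repressor of cap-dependent translation, rose from 189.9 ± 3.44 to 253 ± 9.35 CPM (SD, n = 3 each). Tsc2, an inhibitor of mTOR complex 1, rose by 0.46 in log2 units (edgeR adjusted p = 0.000552). Eif4ebp1 fell by 0.35 in log2 units (edgeR adjusted p = 0.00315). These are RNA levels, and no measure of translation or phosphorylation was made.

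For comparison, the genes of the mitochondrial ribosome were called nearer to the rate of all genes. Of 77 tested Mrpl and Mrps genes, 3 were higher, 12 lower and 62 not called (19.5%), with a median log2 ratio of -0.06. Mrpl50, Mrpl49 and Mrpl35 fell by 0.55, 0.39 and 0.54 in log2 units (edgeR adjusted p = 0.000332, 0.00128 and 0.0018). Their difference from the cytosolic genes was not tested.

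The pseudogenes named after ribosomal proteins (300 symbols, 111 tested) held 0.0367% to 0.0436% of the counts of each library. None was called higher and 2 were lower by edgeR, while 15 had an unadjusted p under 0.05. Rps6-ps3 stood at 2.36 ± 0.221 CPM in the Scramble group and 1.17 ± 0.194 CPM in the JAG2KO group, and Rpl36a-ps3 5.53 ± 1.18 and 3.33 ± 0.63 CPM (SD, n = 3 each; edgeR adjusted p = 0.02 and 0.0345). Their parents Rps6 and Rpl36a also had lower values in JAG2KO, and reads can be shared between parent and copy.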

How the data were processed

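RNA of 6 sorted tumour cell samples was sequenced after polyA selection, per the labels. The deposited values are raw counts, as whole numbers for each gene in each library. Per the submitters' processing notes, the tools were STAR 2.7.7a (alignment) and HTSeq 0.11.2 (counting). Not given in the sources used here were the genome build, annotation, strand and multimapping settings. Scramble columns matched sample titles. JAG2KO columns are numbered 2 to 4 and titles 1 to 3, so those were used as group members without a number. Of 55334 IDs, 55154 matched a GENCODE M21 (GRCm38) symbol, and coordinates come from that annotation.

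The test was that of edgeR 4.0.16 (R 4.3.3) on these counts: filterByExpr (minimum count 10, total 15), TMM factors, the quasi-likelihood F test and Benjamini-Hochberg adjustment over all 16049 genes tested, called under 0.05. CPM use TMM-scaled totals. SE is the log2 fold change divided by the square root of F, and 95% intervals use its degrees of freedom. The floor for a count of 0 is 3 counts and covers counting error only.

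The text names every called member, all genes of the role groups, the 6 highest and 3 lowest members per kilobase, the 3 called members that lost their call most often, and up to 3 called genes of each other list. Values of single genes that are withheld are not reported here. Members and lists were chosen with earlier results of these data known. Alternatives were RLE factors, library totals, TMM without the members, 3 other filters, DESeq2 1.42.0, limma-voom (limma 3.58.1), each library left out, removal of GC and length trends (splines with 5 degrees of freedom) and pseudogene counts added to parents. Counting the 4 annotated pseudogenes as members was added after seeing the data. The procedures were tested on simulated data.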

Additional observations from a re-analysis of the deposited data

How the results depend on the processing

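No paired analysis was possible because the JAG2KO columns carry no number that matches the sample titles. With each library left out in turn, from 1 to 4 ribosomal protein genes were higher and from 2 to 9 lower. The share of all genes called then ran from 16.3% to 24%, against 24.3% with all libraries. With GC and length trends removed, 2 were lower and the median log2 fold change moved from 0.0087 to 0.0632, while the median of all genes moved from 0.0018 to -0.01. Other scalings, filters, DESeq2, limma-voom and added pseudogene counts gave 4 to 6 higher and 6 to 8 lower genes, all within 1.5 times of the reported counts. Counting the 4 annotated pseudogenes as members gave 4 and 6. The share of counts on these genes, JAG2KO minus Scramble, was -0.05 percentage points, ranged from -0.14 to 0.09 with a library left out, and was -0.05 with pseudogene counts added and -0.04 without mitochondrially encoded genes in the total. No call changed direction in any alternative. Of 1095 values of uncalled genes under alternatives, 89 had another sign. At this depth and replicate number the smallest called change among the members was 1.15-fold.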
